A study of Homo sapiens with 2 samples.

Results

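The m6A signal over 35 genes that regulate apoptosis was examined in HCCLM3, a human liver cancer cell line. A peak was counted for a gene when its summit lay within the RefSeq span of that gene, whatever gene the deposited table named for it. By this rule 71 of the 39801 peaks of the list fell in apoptosis regulators, and 29 of the 35 genes held at least 1. The series asks how the CREB coactivator CRTC2 and the m6A-binding protein YTHDF2 act together on methylated transcripts in liver cancer. Its labels give 1 library of RNA captured with the m6A antibody (m6A-RIP) and 1 input library, both from cells of WT genotype, and they name no drug or other treatment. With neither library replicated, each value describes this pair of libraries, no test between conditions could be made, and intervals cover counting error only; those on a fold count the RIP fragments and hold the input level fixed, so they are too narrow where the input is low. Positions are on hg38.

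Apoptosis is run by a balance of proteins. At mitochondria, BCL2, BCL2L1 (BCL-XL), BCL2L2 (BCL-W) and MCL1 hold back the pore formers BAX and BAK1, and the BH3-only proteins oppose that restraint. Cytochrome c leaving the mitochondria lets APAF1 build the apoptosome, which activates caspase 9, while death receptors such as FAS and the TRAIL receptors recruit FADD and activate caspases 8 and 10 at the cell surface. Inhibitor of apoptosis (IAP) proteins and CFLAR act as brakes on caspases. m6A on mRNA is found mainly near stop codons, in 3′ UTRs and in long exons, and is bound by readers such as YTHDF2 that alter the decay or translation of the transcript.

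The fold given for each peak is the authors' own value: RIP signal divided by input signal at the summit, after scaling for library size and adding 1 to both. It is used only to describe and rank peaks within this list. The number of RIP fragments under each summit and the input level, in fragments of the input library, were recovered from the fold and the p-value. In the whole list 48.8% of peaks had a q-value under 0.05. Marker genes of the labelled tissue and of other cell types were also looked up. Of 8 hepatocyte markers 4 held a peak, APOB, HNF4A and FGB among them, and ALB, APOA1, TTR and SERPINA1 held none. This share was near the 49.3% of all protein-coding genes that held a peak. Of 3 epithelial markers KRT8 alone held a peak, with a q-value above 0.05. None of 3 immune markers held one, whereas PECAM1 and LUM, of 4 endothelial and stromal markers, did. A peak list gives no expression level, so the presence of these transcripts was not tested.

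More of these 35 listed genes held peaks than protein-coding genes did as a whole. The list was chosen with earlier results of these data known, so the excess describes the list and is not a test of apoptosis genes as a class. Of 28 further genes of the pathway, 14 held a peak, and 8 held one with a q-value under 0.05. A peak lay in 29 of 35 (82.9%, 95% Wilson interval 67.3 to 91.9), against 49.3% of 20037 protein-coding genes. At a q-value under 0.05 the numbers were 25 of 35 (71.4%) against 39%, at a q-value under 1e-5 they were 21 of 35 against 28.5%, and at a fold of at least 4 they were 18 of 35 against 30.9%. The order was the same within classes of gene span. Among genes of up to 15 kb, 8 of 11 regulators held a peak against 29.6% of all protein-coding genes; between 15 and 40 kb it was 7 of 9 against 51.7%, and above 40 kb it was 14 of 15 against 67.9%. How much RNA of a gene was present also decides whether a peak can be seen, and neither these members nor the background were matched on it, so abundance and methylation cannot be told apart here.

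The peaks themselves were not of unusual height. Their median fold was 3.53 (quartiles 2.82 to 4.54), beside 3.38 (2.42 to 4.72) for the 30222 peaks within protein-coding genes. They rested on more fragments, with a median of 24 (quartiles 9 to 57.5) against 12 (4 to 32), and stood on a median input level of 2.66 against 1.0. Of the 71 peaks, 47 (66.2%, interval 54.6 to 76.1) had a q-value under 0.05, beside 53.7% of peaks in protein-coding genes. At most 3 fragments lay under 6 of them (8.45%), compared with 18.4% of peaks in protein-coding genes. Taking the strongest peak of each gene, the median over the 29 regulators was 4.20 (quartiles 3.07 to 7.01), and that over the 9881 protein-coding genes with a peak was 4.73 (3.38 to 6.64).

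**Figure D1:**
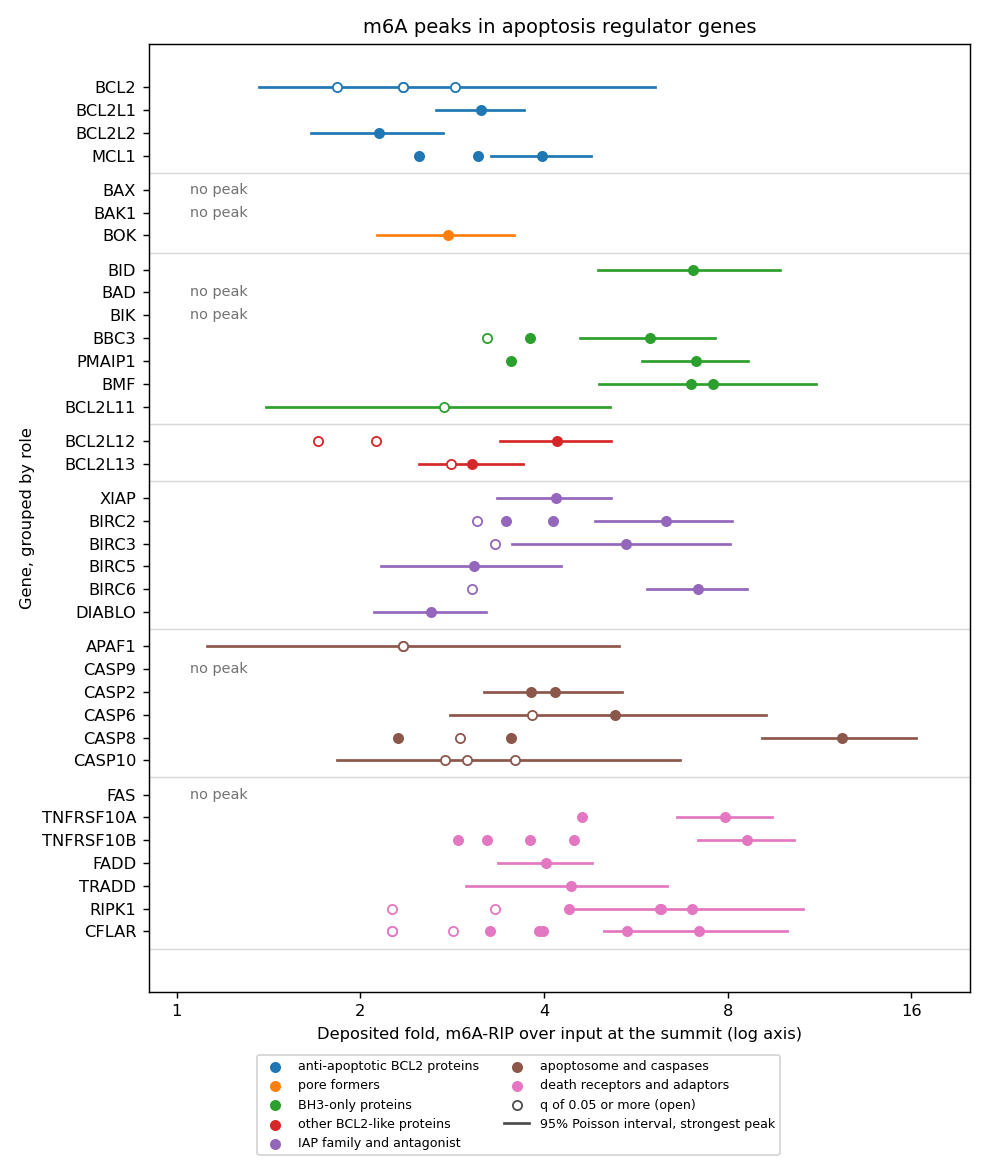
Each point is 1 peak at its deposited fold of m6A-RIP over input (log axis), with 1 row for each of the 35 genes, grouped and coloured by role; open points have a q-value of 0.05 or more, and the line is the 95% Poisson interval of the strongest peak. The strongest peak of CASP8 stands at 12.3, the 4 anti-apoptotic BCL2 genes stay below a fold of 4, and 6 genes have no peak.

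**Figure D2:**
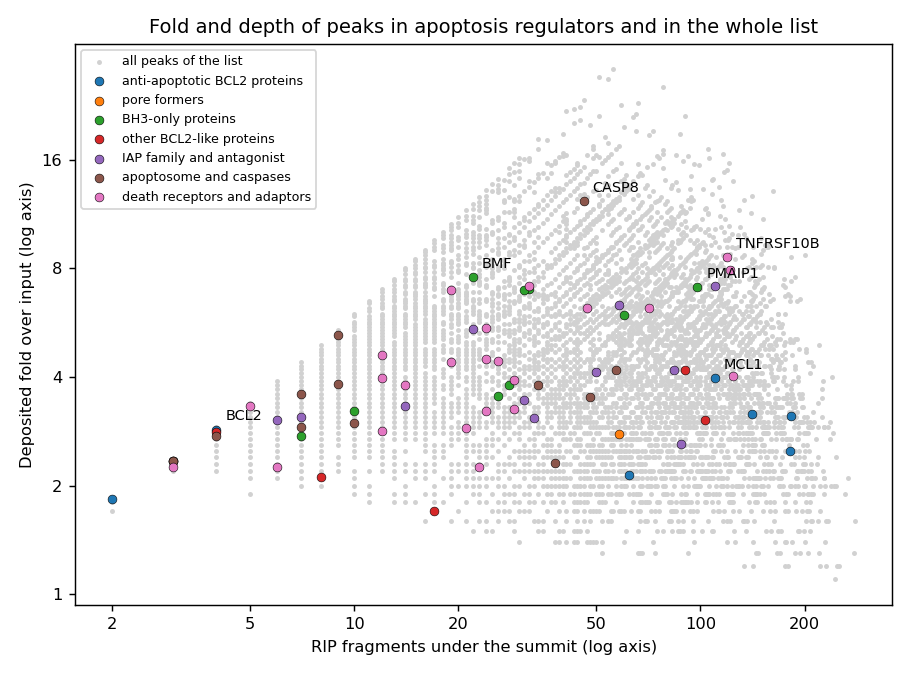
The deposited fold is plotted against the number of RIP fragments under the summit (both log axes) for the 71 peaks in apoptosis regulators, coloured by role, over all 39801 peaks in grey. The peaks of MCL1 lie at the right with up to 183 fragments and folds below 4, and those of BCL2 at the left on 2 to 4 fragments.

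For 3 regulators a summit fell within the stretch from 250 bases before to 50 bases after a RefSeq transcript start, so reference sequence for it was at hand (RefSeq, GRCh38.p14). They are shown because their peaks overlapped an annotated start. These were BCL2, CASP2 and BBC3, whose summits lay 83 bases upstream, 62 bases upstream and 12 bases downstream of that transcript start. It is not the start of the gene span: the same summits lay 0.238, 1.175 and 0.205 kb inside the spans. Only the CASP2 peak, on 34 fragments, had a q-value under 0.05. The BCL2 peak rested on 3 fragments and the BBC3 peak on 10. Since m6A is set within a short consensus of which GGAC is the commonest core, GGAC on the strand of the gene is given in capitals. The sequences run 5′ to 3′ on that strand and cover 30 bases at each summit and, for BBC3, 30 bases around the GGAC nearest to it.
BCL2 summit, chr18:63319837-63319866, minus strand: cggaagagggggtccaggggggagaacttc
BBC3 summit, chr19:47232640-47232669, minus strand: ccagagcagggcaggaagtaacaatgagaa
BBC3 GGAC, chr19:47232670-47232699, minus strand: ttggaaaaaggaaGGACaaaactcaccaaa
CASP2 summit, chr7:143289511-143289540, plus strand: aggccaaaggccctctaaagaaaacaggaa

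None of these 30-base stretches at a summit held GGAC on the strand of the gene. The nearest GGAC under the BBC3 peak lay 28 bases from its summit, and CASP2 had none in the 262 bases of its peak that lay in the window. GGAC is frequent: 66.3% of 35116 such windows of 300 bases held it on the strand of the gene, and 41 of the 55 windows of the regulators did (74.5%). Counting both strands the shares were 87.4% and 94.5%. The window of BCL2 was 70.7% G and C, that of BBC3 48% and that of CASP2 43%, beside a median of 58.7% over all windows. The sequence under the other 68 summits was not used here.

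All 4 anti-apoptotic BCL2 genes held peaks, beside 49.3% of all protein-coding genes, at low folds of 2.15 to 3.98 for their strongest. MCL1, which encodes a short-lived survival protein, held 3 peaks on chromosome 1, all with a q-value under 1e-5 and all carrying a promoter label. From the start of the gene inwards these were a peak at chr1:150578654-150579394 with a fold of 2.49 (95% Poisson interval 2.15 to 2.88), a peak at chr1:150578003-150578366 with a fold of 3.98 (3.28 to 4.78), and a peak at chr1:150576883-150577304 with a fold of 3.12 (2.68 to 3.60). Their 181, 110 and 183 RIP fragments stood over input levels of 46, 17 and 37. The 183 fragments and the input level of 46 were the highest of the 71 peaks. The intervals of the first and the second peak did not overlap with the input held fixed; the counting error of the input was not included.

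BCL2L1 held 1 peak at chr20:31721574-31722266, with a fold of 3.15 (2.66 to 3.71) on 141 fragments, 2.10 kb into the gene. BCL2L2 also held 1 at chr14:23308998-23309293, and its fold of 2.15 (1.66 to 2.74, 62 fragments) was the lowest among the strongest peaks of the 29 genes. That summit lies in the read-through gene BCL2L2-PABPN1 as well. BCL2 itself held 4 peaks within the first 2 kb of the gene at chr18:63318007-63319987. Their folds were 2.35, 1.83, 2.86 and 2.35 in order of position, on 3, 2, 4 and 3 RIP fragments. All 4 stood on the lowest input level of the list, 0.246, and none had a q-value under 0.05. The 12 fragments of BCL2 contrast with the 183 under a single MCL1 summit.

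Only 1 of the 3 pore formers held a peak. BAX and BAK1, the effectors that permeabilise the outer mitochondrial membrane, held none. Both are genes of less than 15 kb, and of all protein-coding genes of up to 15 kb only 29.6% held a peak. BOK, a related protein, held 1 in its 3′ UTR at chr2:241573415-241573766, with a fold of 2.78 (2.13 to 3.58) on 58 fragments. The deposited table named the antisense gene BOK-AS1 for it, and peaks in the table have no strand.

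The BH3-only genes divided into 4 with strong peaks and 3 with a weak peak or none. BMF, whose protein is tethered to the cytoskeleton until stress frees it, held 2 neighbouring 3′ UTR peaks on chromosome 15. That at chr15:40089237-40089906 had a fold of 7.56 (4.92 to 11.2) on 22 fragments, and that at chr15:40090129-40091370 a fold of 6.96 (4.84 to 9.74) on 31. PMAIP1 (NOXA), which neutralises MCL1, had a fold of 7.10 (5.78 to 8.62) on 98 fragments at chr18:59902728-59903180, and a weaker peak near its start with a fold of 3.54 (2.38 to 5.09). BID, which links death receptors to mitochondria once caspase 8 has cut it, held a peak in intron 1 of 5 at chr22:17756302-17756610, with a fold of 7.01 (4.90 to 9.76) on 32 fragments.

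BBC3 (PUMA), a mediator of p53-induced death, held 3 peaks on chromosome 19. The 3′ UTR peak at chr19:47221378-47221868 had a fold of 5.96 (4.59 to 7.63) on 60 fragments. A peak at chr19:47228973-47230236 reached 3.79 (2.59 to 5.39), and the one across the start shown in sequence above reached 3.22 (1.77 to 5.56) on 10 fragments, with a q-value above 0.05. BCL2L11 (BIM) held only 1 peak, in its 3′ UTR, at 2.75 (1.40 to 5.13) with 7 fragments, also above that q-value. BAD and BIK held none. Their spans are 14.9 and 19.0 kb, and of all protein-coding genes in those span classes 29.6% and 51.7% held a peak. With the input held fixed, the intervals of BMF, PMAIP1 and BID lay wholly above that of MCL1, the highest of the anti-apoptotic genes, while that of BBC3 overlapped it. The interval of BCL2, 1.36 to 6.08, was too wide to separate it from any of them. No peak of these 4 anti-apoptotic genes reached a fold of 4, and 5 of the 9 BH3-only peaks did, beside 36.2% of all peaks in protein-coding genes. The 4 BCL2 peaks, on 2 to 4 fragments, could not have reached a fold of 4 even at the lowest input level. They therefore say nothing about this contrast. The median input level was 17.0 under the 9 anti-apoptotic peaks and 2.07 under the 9 BH3-only peaks. A peak on a lower input needs a higher fold to be called, so the folds of these groups are not on equal terms. Whether methylation differs between them was not tested.

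Of the other BCL2-like genes, BCL2L12 held 3 peaks, of which only that near its start had a q-value under 0.05. It lay at chr19:49665279-49665623 with a fold of 4.20 (3.39 to 5.14, 90 fragments), and its summit also lay within IRF3, so the transcript of origin cannot be told apart. Away from IRF3, the highest fold of BCL2L12 was 2.12 (1.11 to 3.84). BCL2L13, a mitochondrial protein, held a peak of fold 3.05 (2.50 to 3.69, 103 fragments) at chr22:17726914-17727764. The deposited label for it was 5′ UTR, although the summit lay 96.6% of the way along the gene. Its other peak, with a fold of 2.82, rested on 4 fragments.

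All 6 genes of the IAP family and its antagonist held a peak with a q-value under 0.05, beside 39% of all protein-coding genes. BIRC6, a very large ubiquitin-conjugating IAP, had the strongest, in exon 10 of 74 at chr2:32414950-32416270. Its fold was 7.16 (5.90 to 8.61) on 110 fragments, and the other peak in this 262 kb gene was intronic on 6 fragments. BIRC2 (cIAP1) held 4 peaks on chromosome 11, led by exon 6 of 9 at chr11:102368419-102368738 with a fold of 6.33 (4.85 to 8.14, 58 fragments). A pair of promoter-labelled peaks at chr11:102349765-102350658 had folds of 3.46 (2.41 to 4.85) and 4.13 (3.10 to 5.41), and an intron peak of fold 3.10 on 7 fragments had a q-value above 0.05. Its neighbour and close relative BIRC3 (cIAP2) had a fold of 5.44 (3.55 to 8.06, 22 fragments) in exon 2 of 9 at chr11:102324736-102325382, and a 5′ UTR peak of 3.33 (1.97 to 5.36) with a q-value above 0.05.

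XIAP, the IAP that binds caspases most directly, had 1 peak, in exon 2 of 7 at chrX:123885897-123886475, with a fold of 4.18 (3.35 to 5.16) on 84 fragments. BIRC5 (survivin), an IAP with a mitotic role, had a 3′ UTR peak at chr17:78224626-78225060 with a fold of 3.07 (2.16 to 4.26). DIABLO, the mitochondrial protein that displaces IAPs from caspases, had the lowest of this group, 2.61 (2.10 to 3.21) on 88 fragments, in a 3′ UTR that overlaps B3GNT4. With the input held fixed, the intervals of BIRC6, BIRC2, BIRC3 and XIAP lay above that of DIABLO, while that of BIRC5 overlapped it. Those of BIRC2 and BIRC3 overlapped each other. BIRC2 and BIRC3 are similar enough that reads may have been shared between them.

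The strongest peak of the whole set was in CASP8, the initiator caspase of the death receptor pathway. It covered intron 2 of 9 at chr2:201240325-201242271, 1947 bp in all and the widest of the 71. The fold was 12.3 (9.12 to 16.3) on 46 fragments over an input level of 1.48. The remaining peaks of CASP8 were lower: 3.53 (2.63 to 4.65) in exon 3 of 10 at chr2:201266600-201266933, 2.91 (1.49 to 5.43) in intron 8 of 9 on 7 fragments, and 2.31 (1.66 to 3.13) in exon 9 of 10 at chr2:201285033-201285391. The interval of the intron 2 peak lay above those of all 3 with the input held fixed, but its input level of 1.48 and that of 0.888 at intron 8 are low and carry counting error of their own. Its interval overlapped those of TNFRSF10B, TNFRSF10A, BMF, CFLAR, BID, RIPK1 and CASP6, but not those of BIRC6 and PMAIP1, among others.

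The other caspase genes had less. The 3′ UTR peak of CASP2 reached 4.17 (3.19 to 5.38, 57 fragments) at chr7:143305114-143305855, and the peak across its internal start, shown in sequence above, reached 3.80 (2.68 to 5.25, 34 fragments). CASP6, an executioner caspase, had 2 peaks labelled intron on 9 fragments each. Their folds were 5.23 (2.81 to 9.23) and 3.83 (2.06 to 6.76). The first lay in MCUB too, and its deposited label was intron 4 of 7 of MCUB. The second, in intron 5 of 6 of CASP6, had a q-value above 0.05. CASP10, an initiator like CASP8, had 3 peaks labelled 3′ UTR with folds of 2.75, 2.99 and 3.58 on 4, 10 and 7 fragments, none with a q-value under 0.05. APAF1 had 2 exonic peaks of fold 2.35 on 3 fragments each, at the lowest input level, and CASP9 had none. The genes of the apoptosome core, APAF1 and CASP9, thus had no peak with a q-value under 0.05, and of all protein-coding genes 39% had one.

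The death receptor genes and their adaptors were the group richest in peaks, with 23 of the 71, of which 18 had a q-value under 0.05, against 53.7% of peaks in protein-coding genes. The TRAIL receptor genes led in fold. TNFRSF10B (DR5) had a 3′ UTR peak at chr8:23022336-23022936 with a fold of 8.59 (7.14 to 10.3) on 119 fragments. Its 4 further peaks, all with a q-value under 0.05, had folds of 3.22 (exon 8 of 9), 4.48 (exon 7 of 9), and 3.80 and 2.89 (both intron 1 of 8). TNFRSF10A (DR4) had a 3′ UTR peak at chr8:23190575-23191934 with a fold of 7.93 (6.60 to 9.45) on 122 fragments, together with one in exon 9 of 10 with a fold of 4.61 (2.64 to 7.65). The main peaks of these receptors had nearly the same depth, and their intervals overlapped. The TRAIL receptor genes are related in sequence, and reads may have been shared among them. FAS, the receptor for FAS ligand, held no peak. Its span is above 40 kb, and of all protein-coding genes of that class 67.9% held one.

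Among the adaptors, RIPK1, a kinase that steers between survival and death, held 6 peaks on chromosome 6. The highest fold, 6.99 (4.42 to 10.6), was in intron 9 of 12 at chr6:3090259-3091002 on 19 fragments. Exon 11 of 13 had a fold of 6.20 (4.87 to 7.78) on 71 fragments at chr6:3105586-3106259, and the 3′ UTR had 6.23 (4.63 to 8.22) on 47 at chr6:3113065-3114290. Exon 12 of 13 followed with 4.40 (2.78 to 6.68). A pair of further intron 9 peaks, with folds of 2.26 and 3.32 on 3 and 5 fragments, had q-values above 0.05. The 3 peaks furthest downstream also lay within the span of LOC107986556. FADD, which couples receptors to caspase 8, had a fold of 4.03 (3.36 to 4.79, 124 fragments) at chr11:70206250-70207049. TRADD, the adaptor of the TNF receptor, had 4.42 (2.97 to 6.36, 26 fragments) in its 3′ UTR on chromosome 16.

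CFLAR (c-FLIP), which resembles CASP8 but lacks its activity, held 8 peaks, the most of any regulator, and 5 had a q-value under 0.05. The strongest was a 3′ UTR peak at chr2:201168223-201169962, with a fold of 7.18 (5.01 to 9.99) on 32 fragments. Intron 1 of 5 had a fold of 5.47 (3.62 to 7.97) at chr2:201124610-201125007. The promoter-labelled peak at the start of the gene had 3.98 (2.28 to 6.62), another promoter-labelled peak 44.7 kb into the gene had 3.92 (2.69 to 5.54), and a 3′ UTR-labelled peak 20.5 kb in had 3.27 (2.24 to 4.62). The remaining 3, with folds of 2.25 to 2.83 on 6 to 23 fragments, had q-values above 0.05.

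CFLAR, CASP10 and CASP8 lie in this order along 172 kb of chromosome 2 and together held 15 of the 71 peaks (21.1%). The peaks were uneven across them: 8 in CFLAR, 3 in CASP10 and 4 in CASP8. By q-value under 0.05 they were 5, 0 and 3. The highest fold exceeded 4 in CFLAR and CASP8 only, and CASP10 between them reached 3.58 (1.83 to 6.69). With 4 to 10 fragments under each CASP10 summit, its interval overlapped that of CFLAR but not that of CASP8.

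**Figure D3:**
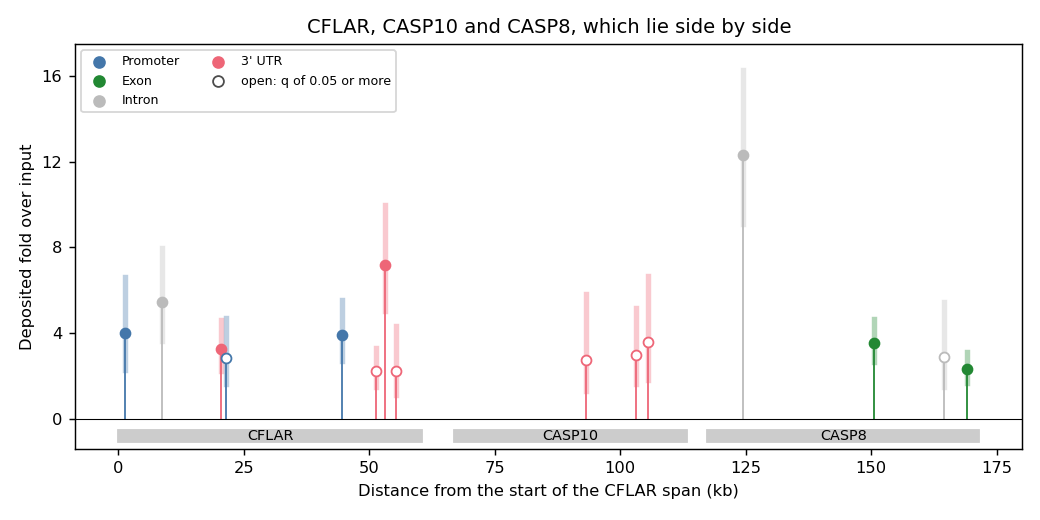
Deposited fold of each of the 15 peaks in CFLAR, CASP10 and CASP8, drawn at the distance of its summit from the start of the CFLAR span in kb; colours give the deposited label, broad pale bars the 95% Poisson interval, and open points a q-value of 0.05 or more. The intron peak of CASP8 at 12.3 stands highest, and the 3 peaks of CASP10 are open points below a fold of 4.

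By deposited label, 22 of the 71 peaks (31.0%, interval 21.4 to 42.5) lay at promoters, 20 (28.2%, 19.0 to 39.5) in 3′ UTRs, 14 (19.7%, 12.1 to 30.4) in introns, 13 (18.3%, 11.0 to 28.8) in exons outside UTRs and 2 in 5′ UTRs. Among all peaks in protein-coding genes the shares were 15% promoter, 18.8% 3′ UTR, 44.4% intron and 18.1% exon. Among peaks with a q-value under 0.05 the 3′ UTR shares came to 27.7% in the regulators and 27.6% in all protein-coding genes, and the exon shares to 23.4% and 24.2%. Intron shares were 14.9% and 27.1%, and promoter shares 31.9% and 18.0%. Peaks of the same gene are not independent, so the intervals are too narrow, and the differences were not tested.

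The promoter label takes precedence over the others and reaches 3 kb from any transcript start, so that it can cover most of a short gene. Of the 22 promoter-labelled peaks, 10 lay in regulators of at most 15 kb, such as MCL1, PMAIP1 and FADD, and 16 had their summit more than 1 kb downstream of the start of the gene span. For 12 of the 29 genes the strongest peak was in a 3′ UTR, for 7 at a promoter, for 5 in an exon, for 4 in an intron and for 1 in a 5′ UTR.

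**Figure D4:**
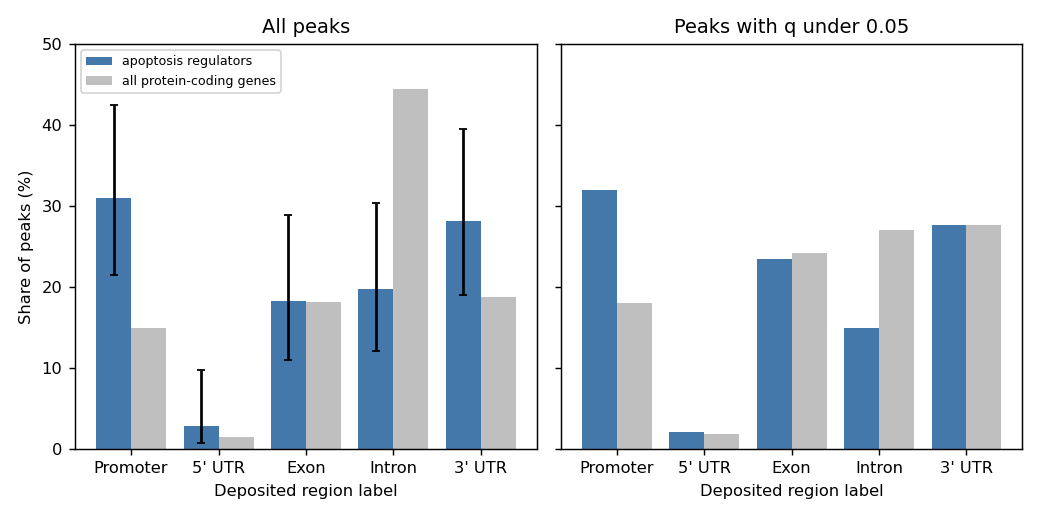
Share of peaks in percent by deposited region label, for apoptosis regulators (blue) and all protein-coding genes (grey), over all peaks on the left and those with a q-value under 0.05 on the right; bars on the left carry 95% Wilson intervals. Intron labels make up 19.7% of peaks in the regulators and 44.4% in protein-coding genes on the left, and the 3′ UTR bars on the right are nearly level at 27.7% and 27.6%.

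Along the gene, 14 of 69 summits (20.3%) in the 27 peak-bearing genes of known strand lay in the last 10% of the span, and 12 (17.4%) in the first 10%. For protein-coding genes as a whole the shares were 21.7% and 10.2%. BCL2 supplied 4 of the 12 near the start. The strong 3′ UTR peaks of TNFRSF10B, TNFRSF10A, BMF and CFLAR clustered between 87.7% and 98.4% of the span, while the strongest peaks of CASP8 and BIRC6 lay at 13.1% and 22.4%.

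**Figure D5:**
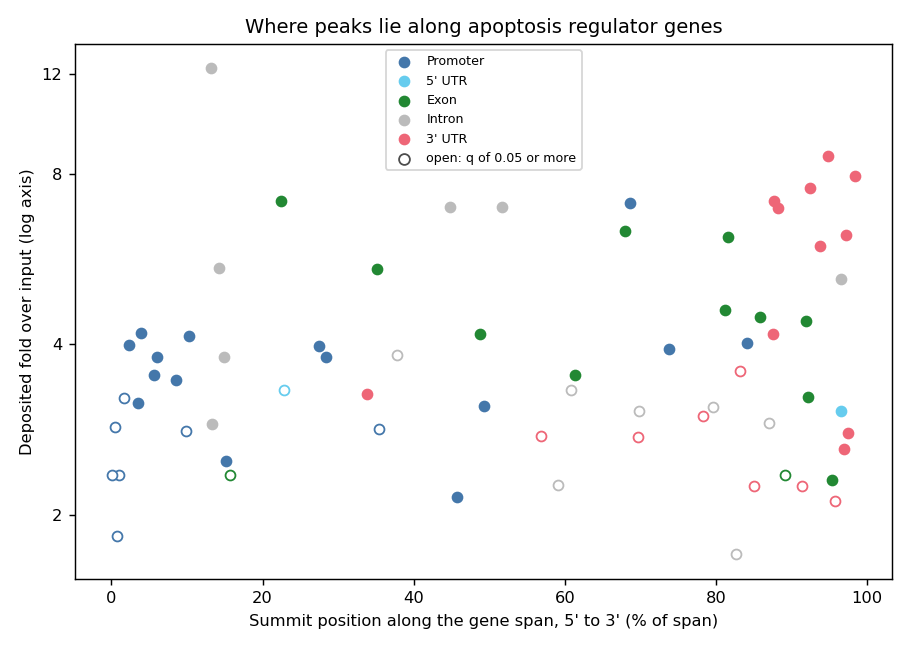
Deposited fold (log axis) of 69 peaks against the position of the summit along the gene from 5′ to 3′ in percent of its span, coloured by deposited label, with open points for a q-value of 0.05 or more. The 3′ UTR peaks of high fold gather at the right edge, and the open points at the left edge are those of BCL2, BCL2L13 and the BBC3 start.

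The deposited table named the regulator itself for 43 of the 71 peaks (60.6%) and a neighbour with a nearer transcript start for the other 28. For 11 of the 29 genes the strongest peak went under another name. The main peak of TNFRSF10A was listed under TNFRSF10D, that of TNFRSF10B under RHOBTB2, that of CFLAR under CFLAR-AS1 and the RIPK1 exon and 3′ UTR peaks under BPHL. BID, BIRC5, BOK, CASP10, DIABLO, TNFRSF10B and TRADD had no peak in their span under their own name. At 8 summits, in 6 of the genes, another gene span was also present.

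Beyond these members, 14 of 28 further genes of the pathway held a peak, and 8 held one with a q-value under 0.05, beside 49.3% and 39% of all protein-coding genes. The share with any peak was thus near that of protein-coding genes as a whole, and the share at that q-value was below it. The decoy TRAIL receptor genes TNFRSF10C and TNFRSF10D showed 8.52 (5.69 to 12.3) and 6.92 (4.42 to 10.4), the former in a span shared with LOC254896. DFFA and DFFB, the inhibitor and the nuclease of apoptotic DNA fragmentation, reached 6.24 (4.80 to 7.99) and 5.95 (3.27 to 10.3), and the mitochondrial nuclease gene ENDOG, which overlaps SPOUT1, reached 5.26 (3.59 to 7.48). The TNF receptor gene TNFRSF1A reached 2.67 and its adaptor TRAF2 3.94. Genes of the list without a peak included CYCS, HTRA2, VDAC1, VDAC2, TNFSF10, FASLG, TNF, BCL2A1, BCL2L10, HRK, BNIP3, RIPK3 and NAIP.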

How the data were processed

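The submitters' processing notes name HISAT2, MACS2 and hg38 for the 1 m6A-RIP and 1 input library. Their versions, the settings of the peak caller and any removal of duplicates are not given in the sources used. A single annotated list of peaks was deposited, and its fold is a linear enrichment ratio, per the file headers. The columns taken as −log10 p and −log10 q have damaged headers in the deposited table: 99.99% of the deposited scores equal 10 times the first of them, rounded down. Peaks are numbered to 39824, so 23 numbers were not used here. Fold, −log10 p and −log10 q are the authors' values for a peak, used only within this list.

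Summits (start plus offset) were placed in the spans of RefSeq genes (GRCh38.p14), all 35 regulators among them. RIP fragments and input level were solved from fold, (0.642 × fragments + 1)/(input + 1), and p, a Poisson tail: whole numbers met both for 100% of peaks within 0.001 in −log10 p, with 1 solution for all 71 peaks used here. The solver was tested on simulated data with the scaling factor given, so the fit of 0.642 was not part of that test. Nor were the lowest and highest fragment numbers of the 71 peaks. Fold intervals (95%, exact Poisson) hold the input fixed; shares have 95% Wilson intervals. The libraries carry no stated molecular identifiers, so fragments need not be separate molecules, and total depth is not stated. Reads shared between related or overlapping genes make their peaks uncertain.

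The members and gene lists were chosen with earlier results of these data known. All members are named; the 10 with the highest fold and those with at least 4 peaks are described peak by peak, and of the further pathway genes, those with a q-value under 0.05 and the 6 of highest fold are named, and those without a peak were added after their values were seen. Some items that these rules would name are not reported here. Alternatives were other q-value and fold thresholds, other ways to place a peak, and, added after seeing the data, more than 3 fragments. Python 3.11.15, pandas 2.3.3, numpy 2.4.6 and scipy 1.17.1 were used.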

Additional observations from a re-analysis of the deposited data

How the results depend on the processing

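With 1 library of each kind, no replicate could be left out. No paired analysis was possible because each group has 1 sample. Of the 71 peaks, a q-value under 0.05 left 47, one under 1e-5 left 29 and a fold of 4 or more left 26, and the median fold went from 3.53 to 4.17, 5.47 and 6.08. The 29 genes fell to 18 at a fold of at least 4. The share of exon and UTR labels went from 49.3% to 65.4% at a fold of at least 4 and 36.8% under the deposited gene names.

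Under those names 24 regulators held 68 peaks, and the highest fold turned to 7.88 for BBC3, 15.9 for BCL2L11, 4.61 for TNFRSF10A and 3.26 for TNFRSF10B. With summits in 1 gene span only, 27 genes and 63 peaks were left; with any overlap, 29 and 72; and with more than 3 fragments, which was chosen after seeing the data, 28 and 65. The planned motif search at all summits was not run, because sequence was at hand only near transcript starts, and it was used for 3 summits.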

Other observations

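Some peaks that the deposited table named for a regulator lay outside every regulator's span. There were 21, of which 10 had a q-value under 0.05. The highest, named for BCL2L11 at 86.3 kb from its start, lay in exon 7 of 7 of the long non-coding RNA gene MIR4435-2HG (chr2:111207203-111208088), and its fold was 15.9 (11.1 to 22.1) on 32 fragments. In BCL2L11 itself the only peak had a fold of 2.75.

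Upstream of BBC3 on chromosome 19, 5 peaks labelled intergenic, all with a q-value under 0.05, stood between 47235851 and 47244041. The deepest (chr19:47243326-47244041) had a fold of 5.46 (4.65 to 6.36) on 160 fragments, and its summit and those of 3 others lay within the uncharacterised gene LOC124904731. The nearest to BBC3, with a fold of 7.88 (4.93 to 12.1) on 18 fragments, lay in no gene span. A pair of peaks named for BIRC3, with folds of 3.95 and 3.53 on 60 and 147 fragments, lay in YAP1.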
